A study of Homo sapiens with 6 samples.

Results

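The genes described here are 42 genes of the hypoxia response and of glycolysis, chosen by symbol from a list and all found among the 26364 genes of the table. They comprise 3 subunits of the hypoxia-inducible factors (HIF), 16 HIF target genes outside glycolysis, 17 glycolytic enzymes including lactate dehydrogenase, 4 glucose and lactate transporters, and 2 bifunctional enzymes of the PFKFB family. RNA-seq was done on T47D, a human cell line of luminal A breast epithelium, 48 h after transfection with siNC, the control siRNA, or with siELF5, directed at the ETS-family transcription factor ELF5. Each group held 3 libraries and received a single siRNA product, and the 2 products carry different catalogue numbers, so siRNA product and target cannot be told apart. The labels name no low-oxygen treatment for either group.

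HIF is a dimer of an oxygen-regulated alpha subunit, encoded by HIF1A or EPAS1, and a constant partner, encoded by ARNT. When oxygen is present, prolyl hydroxylases of the EGLN family mark the alpha subunit for destruction through VHL. When oxygen falls, the stable dimer binds a short DNA motif, the hypoxia response element, and raises genes of glucose uptake, glycolysis, lactate export, angiogenesis and mitochondrial turnover. Glycolytic enzymes are abundant in cancer cells with oxygen present as well.

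The target of the siRNA was measured first. ELF5 was at 13225, 13148 and 12910.2 normalised read counts in siNC replicates 1, 2 and 3 and at 3678, 3725 and 3638 in siELF5, so all 6 libraries matched their labels. A normalised read count is the number of reads of a gene after scaling each library by its size factor. Library depth was 66.8 M to 83.7 M reads, and all 8 luminal markers listed for T47D (ESR1, PGR, GATA3, FOXA1, KRT8, KRT18, KRT19 and EPCAM) were above a mean of 10. Of 10 markers of other cell types 4 reached that mean, with a level summed over the 10 of 4388 to 5596 in siNC and 3555 to 4101 in siELF5. COL1A1, a fibroblast collagen gene at 3220 to 5184, made up most of that sum and fell in siELF5, as did LUM and VWF at far lower levels. The other fibroblast markers, COL1A2 and DCN, were at or under 14.8 in every library. CD68, the remaining marker that reached a mean of 10, went the other way, with means of 132.4 in siNC and 167.0 in siELF5. Its groups did not overlap, but it did not pass (log2 fold change 0.33, limma adjusted p = 0.0634). PTPRC, a leukocyte marker, and PECAM1, an endothelial marker, were at or under 3.04 in every library. The part of such transcripts in the results below was not tested.

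In the core promoters of the 42 genes the hypoxia response element was searched as ACGTG or GCGTG on either strand, in the 250 bases before each start in RefSeq (GRCh38.p14). Windows were found for 37 genes, and 39 of their 65 windows (60%) held a match, against 53.6% of the windows of all tested genes. BNIP3L, NDRG1, SLC16A1, SLC2A3 and VEGFA had no window. The windows of 5 genes are shown because they set clustered matches beside single ones, and genes that fell beside genes that rose or did not pass the test. Matches are in capitals, and each window runs 5′ to 3′ on the gene's strand.
BNIP3, chr10:131981924-131982173, minus strand: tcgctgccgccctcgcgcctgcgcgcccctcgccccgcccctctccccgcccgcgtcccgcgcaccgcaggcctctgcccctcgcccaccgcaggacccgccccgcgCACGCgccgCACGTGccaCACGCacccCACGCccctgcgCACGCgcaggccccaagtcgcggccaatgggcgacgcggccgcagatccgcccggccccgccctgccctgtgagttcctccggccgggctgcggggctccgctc
PGK1, chrX:78103998-78104247, plus strand: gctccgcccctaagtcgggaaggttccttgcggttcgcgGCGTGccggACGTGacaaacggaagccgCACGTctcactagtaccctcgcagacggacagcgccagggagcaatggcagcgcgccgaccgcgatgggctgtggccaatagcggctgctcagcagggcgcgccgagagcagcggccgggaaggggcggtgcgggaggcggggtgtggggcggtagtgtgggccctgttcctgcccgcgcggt
LDHA, chr11:18394313-18394562, plus strand: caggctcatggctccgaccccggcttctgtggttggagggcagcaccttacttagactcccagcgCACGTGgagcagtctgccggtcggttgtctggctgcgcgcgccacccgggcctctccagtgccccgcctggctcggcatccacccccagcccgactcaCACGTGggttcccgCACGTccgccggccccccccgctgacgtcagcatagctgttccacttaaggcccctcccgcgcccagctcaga
ADM, chr11:10304823-10305072, plus strand: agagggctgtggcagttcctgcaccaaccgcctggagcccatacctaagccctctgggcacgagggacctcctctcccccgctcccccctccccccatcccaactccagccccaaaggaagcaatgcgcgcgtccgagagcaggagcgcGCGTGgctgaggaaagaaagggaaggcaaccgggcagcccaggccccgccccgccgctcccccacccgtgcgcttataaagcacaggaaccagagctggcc
EGLN1, chr1:231422288-231422537, minus strand: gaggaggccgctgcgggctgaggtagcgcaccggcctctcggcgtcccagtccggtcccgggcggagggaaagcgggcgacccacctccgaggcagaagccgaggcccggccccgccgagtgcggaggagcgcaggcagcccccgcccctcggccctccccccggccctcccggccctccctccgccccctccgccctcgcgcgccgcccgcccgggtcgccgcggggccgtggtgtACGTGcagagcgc
BNIP3 had 5 separate matches in its window, PGK1 and this start of LDHA had 3 each, and ADM and EGLN1 had 1 each. Clustered matches also occurred in risen genes that are not shown, with 3 each for DDIT4 and for a start of SLC16A3. Among windows of genes that rose in siELF5, 9 of 14 held a match, among those of genes that fell 15 of 31, and among those of genes that did not pass 15 of 20. HK1 and PFKM have many starts and supply many windows of fallen genes, most of them without a match. Counted by gene, only ARNT and EGLN3 of the 16 fallen genes with windows had no match. LDHB, P4HA2 and PGAM1 had none among the 9 risen genes, and PKM and SLC2A1 among the 12 that did not pass. The core of the ETS motif, CCGGAA on either strand, was in 13 of the 65 windows (20%), against 21.2% of the windows of all tested genes. These matches describe letters in short windows, and several starts belong to 1 gene, so no test was made.

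Of the 42 genes, 41 passed the filter on low values (a mean of at least 10), and 29 of them changed in siELF5 (limma on log2(value + 1), adjusted p under 0.05), 11 upward and 18 downward. The share of 70.7% stands beside 47.1% of all genes tested, of which 23.8% rose and 23.3% fell. Among genes with a mean of at least 1000, 24 of 33 changed (72.7%), 8 upward and 16 downward, beside 58.3% of all such genes (25.1% upward and 33.2% downward). The 3 siELF5 values lay wholly above or below the 3 siNC values for 29 of the 41, beside 55.9% of all genes tested. The median log2 fold change of the 41 was -0.059, against 0.0015 over all genes. Most changes were small, since 24 of the 29 were under 1.5-fold and only NDRG1 and ADM were at least 2-fold. In such bulk samples, fewer cells that express a gene and less RNA per cell cannot be told apart.

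**Figure D1:**
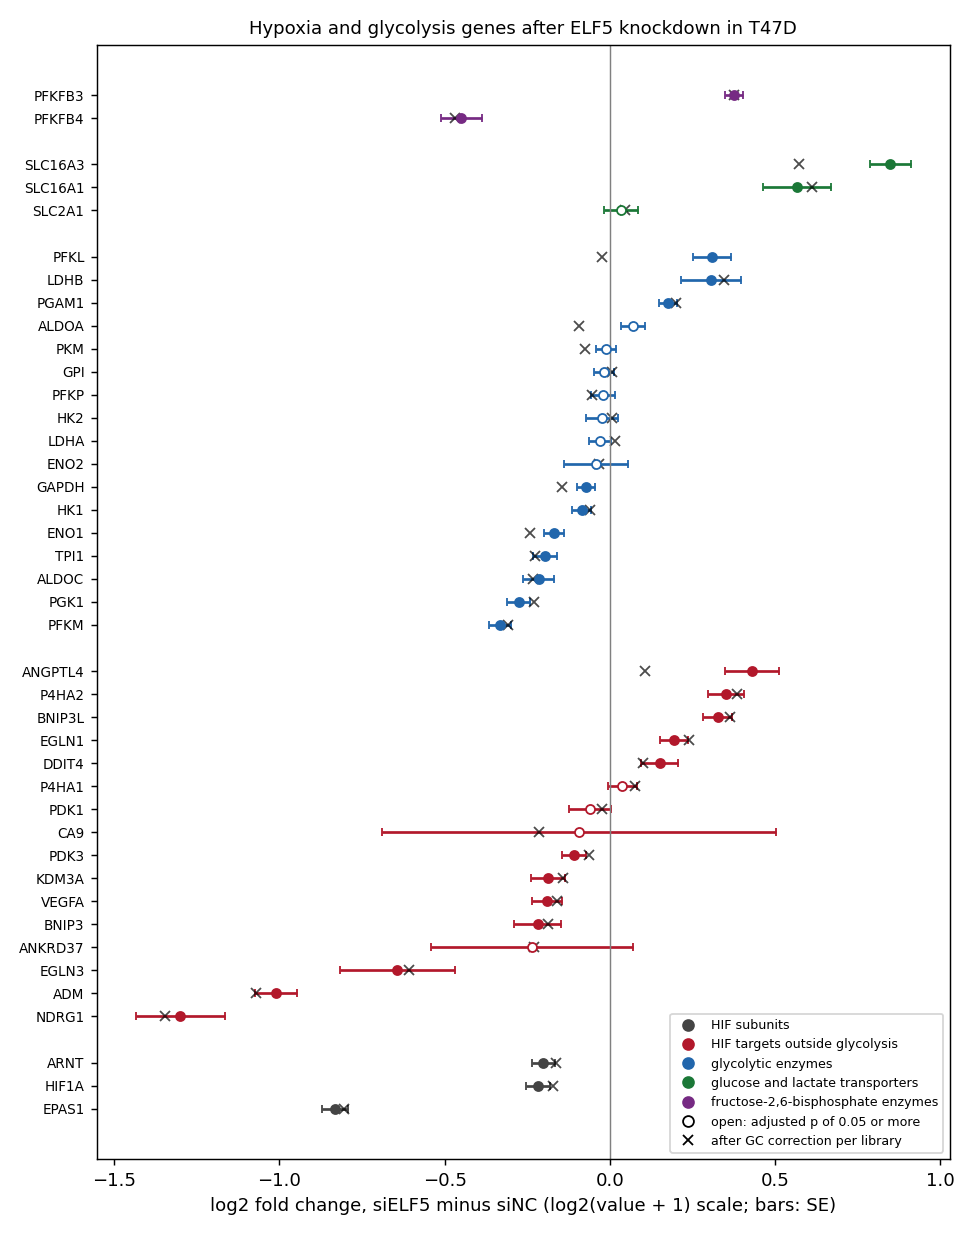
Log2 fold change (siELF5 minus siNC, horizontal axis) with its standard error for the 41 tested genes, grouped by role, with open circles for genes that did not pass and crosses for the value after GC correction. NDRG1 (-1.30) and ADM (-1.01) lie farthest to the left and SLC16A3 (0.85) farthest to the right, and the crosses of PFKL, ANGPTL4 and SLC16A3 lie to the left of their circles.

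Base composition moved with the groups. A score of how far GC-rich transcripts deviated in a library was -0.41, -0.22 and -0.075 in siNC replicates 1, 2 and 3 and 0.23, 0.28 and 0.22 in siELF5, so the groups did not overlap in it. Transcript GC content of the 41 genes ran from 36.4% to 63.5%, and 3 of them, PFKL, ANGPTL4 and SLC16A3, were in the tenth of genes with the highest GC, from 62.1%. After a GC correction in each library 25 of the 41 were called, 8 upward and 17 downward, beside 48.3% of all genes (23% upward and 25.3% downward). With the score as a covariate 7 passed, beside 7.39% of all genes (3.29% upward and 4.1% downward). These 7 were EPAS1 and ADM, which fell, and EGLN1, BNIP3L, P4HA2, SLC16A3 and PFKFB3, which rose. Standard errors were larger in that model, at 0.0758 against 0.0277 for GAPDH and 0.0865 against 0.0328 for ELF5. A call lost there therefore does not show that a gene was unchanged. The part of base composition in the calls other than these 7 was not tested further.

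All 3 HIF subunit genes fell, EPAS1 by the most. EPAS1, which encodes HIF-2 alpha, was at 6355, 6547 and 6232 in siNC and at 3709, 3500.2 and 3544 in siELF5. The groups were far apart against the spread within each, and the siELF5 mean was 56.2% of the siNC mean (log2 fold change -0.83, SE 0.0392, limma adjusted p = 7.97e-09). The value was -0.81 after GC correction and -0.78 with the GC score as covariate.

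HIF1A, which encodes HIF-1 alpha, was at 11928, 11923 and 11562 in siNC and at 10662, 9923 and 9919.8 in siELF5. The groups did not overlap, but the siELF5 mean was still 86.1% of siNC (log2 fold change -0.22, SE 0.0361, limma adjusted p = 0.00034). ARNT, the shared partner, went from 7769, 7866 and 7541 to 6821, 6705 and 6639 (log2 fold change -0.20, SE 0.0337, limma adjusted p = 0.000352). Neither HIF1A (limma adjusted p = 0.402) nor ARNT (adjusted p = 0.376) passed with the GC score in the model, where both stood at -0.14.

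Per kilobase of transcript, HIF1A was the more abundant alpha subunit in both groups. EPAS1 made up 29%, 29.6% and 29.2% of the normalised reads per kilobase of the 2 alpha subunits in siNC and 21%, 21.3% and 21.5% in siELF5. Its share was thus lower in every siELF5 library, while the sum of both genes went from 4219 ± 79.5 to 3264 ± 129 (SD, n = 3) normalised reads per kilobase. Lengths are those of the longest coding transcript in GENCODE 29, which may not be the isoform these cells use.

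**Figure D2:**
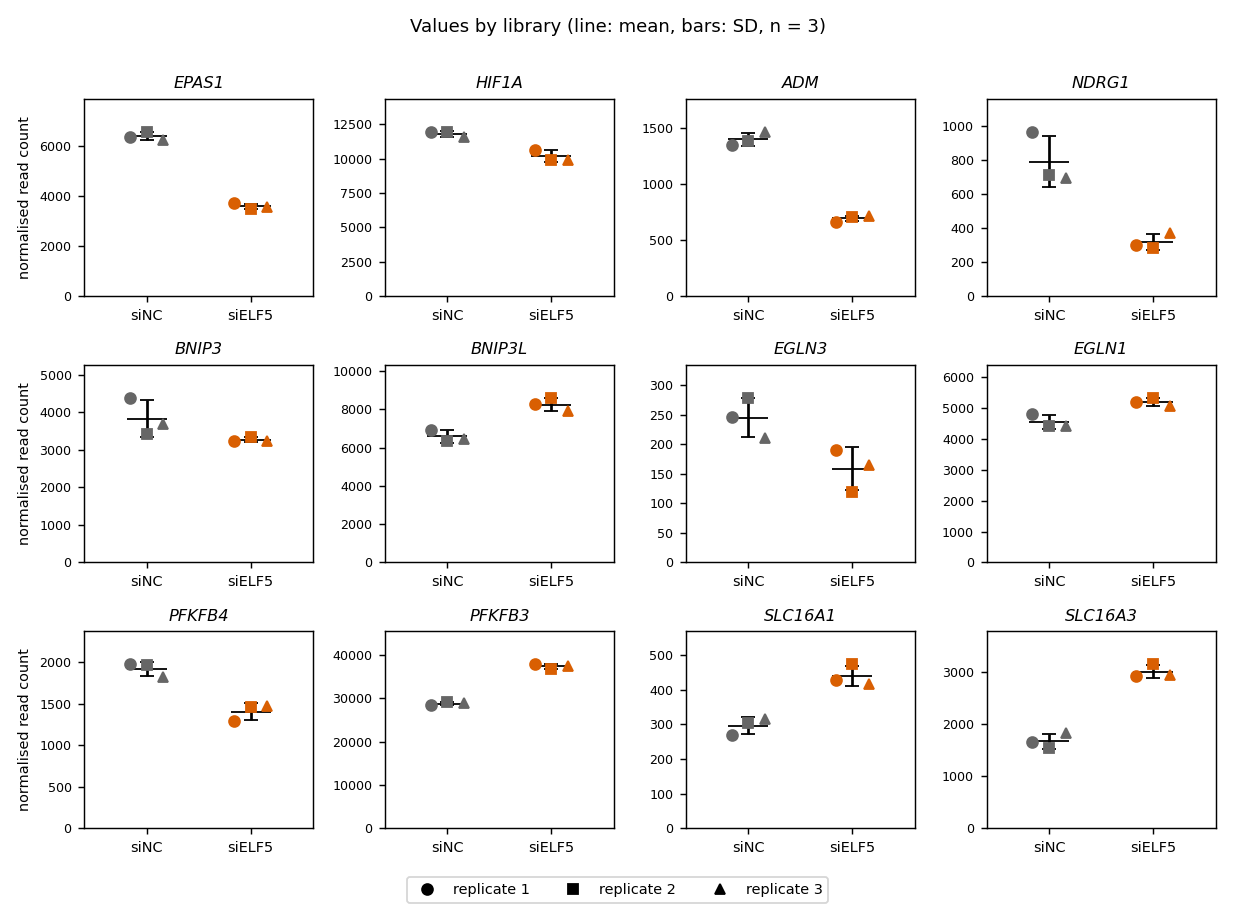
Normalised read count (vertical axis, from 0) of 12 genes in each of the 3 siNC and 3 siELF5 libraries, with mean and SD. EPAS1, HIF1A, ADM, NDRG1, BNIP3, EGLN3 and PFKFB4 are lower in siELF5, and BNIP3L, EGLN1, PFKFB3, SLC16A1 and SLC16A3 are higher, with no overlap between groups in any of the 12.

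The oxygen sensors went in opposite directions. EGLN1 (PHD2), the main HIF prolyl hydroxylase and itself a HIF target, was at 4799.6, 4429 and 4406 in siNC and at 5205, 5317 and 5063 in siELF5. It rose to 114% of the siNC mean (log2 fold change 0.19, SE 0.0427, limma adjusted p = 0.00244), and the value was 0.24 after GC correction. EGLN3 (PHD3), a strongly hypoxia-induced member of the family, was low, at 246, 279 and 212 in siNC and 191, 119.7 and 165 in siELF5. These values spread widely within each group, and the highest siELF5 value lay close under the lowest siNC value (log2 fold change -0.64, SE 0.174, limma adjusted p = 0.00858). Without siNC replicate 2 EGLN3 did not pass (limma adjusted p = 0.0502), nor did it with the GC score as covariate (-0.20, adjusted p = 0.849).

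Secreted factors of the hypoxia response were split. ADM, adrenomedullin, a vasodilator and angiogenic peptide, was at 1349, 1392 and 1468 in siNC and at 666, 707 and 715 in siELF5. Its groups lay far apart, with a siELF5 mean at 49.6% of siNC (log2 fold change -1.01, SE 0.0643, limma adjusted p = 9.73e-08), and the value was -1.19 with the GC score as covariate. VEGFA, the main angiogenic growth factor, fell far less, from 2739, 2625 and 2557 to 2312, 2333 and 2291 (log2 fold change -0.19, SE 0.045, limma adjusted p = 0.00375). With the GC score as covariate VEGFA stood at -0.059 and did not pass (limma adjusted p = 0.830). ANGPTL4, a secreted inhibitor of lipoprotein lipase, rose from 512, 530.3 and 564 to 717, 775 and 676 (log2 fold change 0.43, SE 0.081, limma adjusted p = 0.00079). Its transcript has a GC content of 63.3%, and after GC correction it stood at 0.11 and did not pass (limma adjusted p = 0.271).

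NDRG1, a stress-induced gene often used as a hypoxia marker, had the largest fold change of the 41. It was at 964, 713 and 696 in siNC and at 302, 282 and 374 in siELF5. All siELF5 values lay far under the siNC values, and siNC replicate 1 stood above the other controls (log2 fold change -1.30, SE 0.134, limma adjusted p = 7.1e-06). The value was -1.35 after GC correction. In the model with the GC score it was -0.55, with a standard error of 0.261, and did not pass (limma adjusted p = 0.239).

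The mitophagy receptors BNIP3 and BNIP3L (NIX), which tether mitochondria to autophagosomes, diverged. BNIP3 was at 4376, 3422 and 3681 in siNC and at 3243, 3349 and 3225 in siELF5, so the groups barely separated and siNC replicate 1 stood highest (log2 fold change -0.22, SE 0.0709, limma adjusted p = 0.0228). Its call was lost without siNC replicate 1 (-0.12, limma adjusted p = 0.0591), without siELF5 replicate 1 (0.0692) and without siELF5 replicate 3 (0.0637). BNIP3L rose from 6949, 6344 and 6463 to 8279, 8591 and 7902, with the groups well apart (log2 fold change 0.33, SE 0.0434, limma adjusted p = 5.65e-05), and the value was 0.45 with the GC score as covariate. BNIP3L thus took 59.5% ± 1.9 of the pair's normalised reads per kilobase in siNC and 68.2% ± 0.548 in siELF5 (SD, n = 3). GENCODE 29 lists 39 pseudogenes named after BNIP3, so its reads could be split with copies.

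The collagen prolyl hydroxylases P4HA1 and P4HA2 make the hydroxyproline that stabilises the collagen triple helix. P4HA2 rose from 3025, 2795 and 2818 to 3831, 3404 and 3801 (log2 fold change 0.35, SE 0.0534, limma adjusted p = 0.000161), with all siELF5 values above all siNC values. Of its exon bases 14.8% are shared with the antisense gene P4HA2-AS1, and the library kit does not mark strand, so reads of the pair cannot be told apart there. Over the 6 libraries P4HA2-AS1 had a mean of 81.0, against 3279 for P4HA2. P4HA1 did not pass (log2 fold change 0.038, SE 0.0435, limma adjusted p = 0.506), and its groups overlapped.

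Other HIF targets changed by little. KDM3A, a histone demethylase induced in hypoxia, went from 3968, 3426 and 3552 to 3171, 3233 and 3192 (log2 fold change -0.19, SE 0.0524, limma adjusted p = 0.0104), with siNC replicate 1 highest. DDIT4 (REDD1), an inhibitor of mTOR complex 1, rose by 0.15 on the log2 scale (limma adjusted p = 0.0424). PDK1 and PDK3 encode kinases that keep pyruvate out of the citrate cycle. PDK3 fell by 0.11 (limma adjusted p = 0.0254), while PDK1 stood at -0.059 and did not pass (adjusted p = 0.476). The DDIT4 call was lost on leaving out any 1 library but siNC replicate 1 (limma adjusted p up to 0.158), and the PDK3 call on leaving out siNC replicate 1 or 2 or siELF5 replicate 1 or 2 (up to 0.113). After GC correction DDIT4 stood at 0.10 and PDK3 at -0.063, and neither passed (limma adjusted p = 0.168 and 0.118).

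A pair of HIF targets was close to the detection floor. CA9, a carbonic anhydrase that depends strongly on HIF-1, was at 10.3, 3.69 and 20.2 in siNC and 6.34, 7.85 and 13.4 in siELF5. ANKRD37 was at 28.7, 46.1 and 53.6 and 44.4, 36.3 and 26.7. Groups overlapped in both, and no difference was detectable at this depth (limma adjusted p = 0.916 for CA9 and 0.562 for ANKRD37).

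Of the 16 HIF targets, 5 rose, 7 fell and 4 did not pass, the median being -0.10 on the log2 scale. The called share was 75%, beside 47.1% of all genes tested and 58.3% of those with a mean of at least 1000. All of the targets but EGLN3, ANGPTL4, CA9, NDRG1 and ANKRD37 reached that level. The balance of directions depended on the fit. After GC correction 3 rose and 6 fell, 56.25% beside 48.3% of all genes. Without limma's intensity trend 5 rose and 3 fell, while over all genes 3224 rose and 3131 fell. With the GC score as covariate 3 rose and 1 fell, with a median of 0.087. That share of 25% stands beside 7.39% of all genes (3.29% upward and 4.1% downward). Within the controls many of them were highest in the same library: siNC replicate 1 was the highest siNC library for 11 of the 16 targets (68.8%), beside 37.7% of all genes tested. Without siNC replicate 1, 5 targets rose and 5 fell, while over all genes 3541 rose and 3431 fell.

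**Figure D3:**
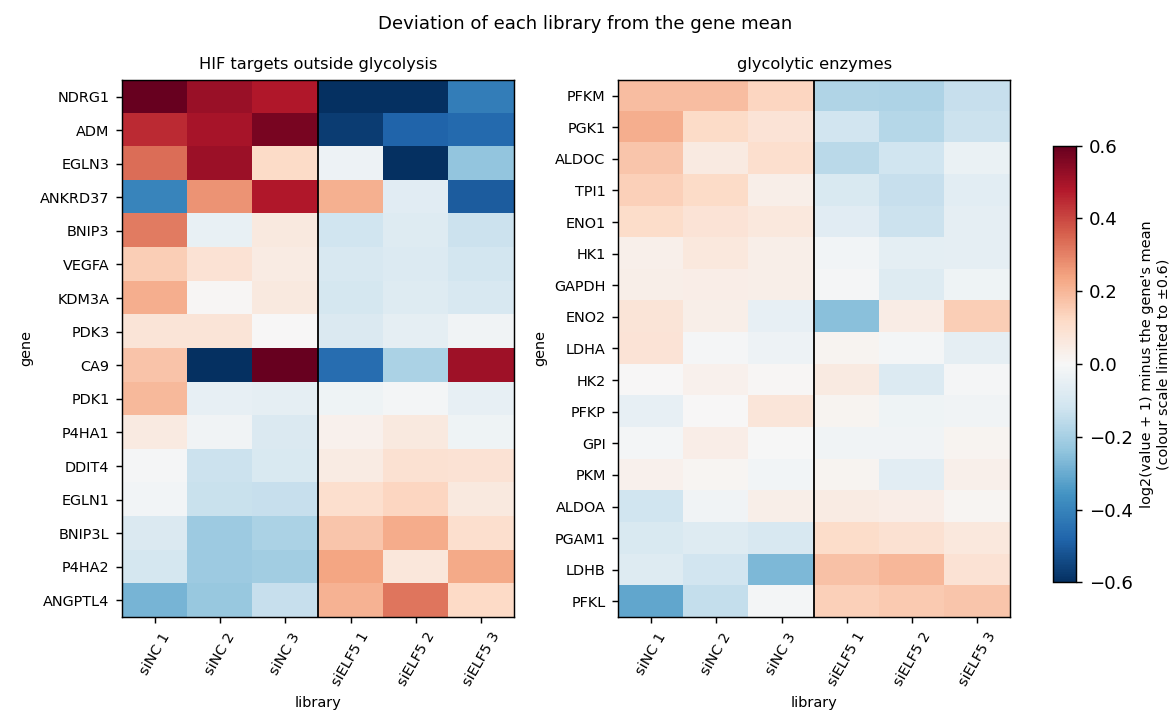
Deviation of each library from the gene's mean (log2(value + 1), colour, limited to 0.6 either way) for the 16 HIF targets and the 17 glycolytic enzymes, with genes ordered by the difference between groups. BNIP3, KDM3A, PDK1 and NDRG1 are highest in siNC replicate 1, and most enzymes show paler colours than NDRG1 or ADM.

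Glycolytic enzymes moved within a narrower band. Of 17, 3 rose, 7 fell and 7 did not pass. The called share of 58.8% was close to the 58.3% of all genes with a mean of at least 1000, a level that all of these enzymes but ENO2 and LDHB reached. Their median log2 fold change was -0.029, with a range from -0.33 to 0.31, beside -1.30 to 0.43 for the HIF targets. With every library scaled to the same total, 4 rose and 5 fell, while over all genes 4380 rose and 3132 fell. The median of the targets minus that of the enzymes was -0.071, and with the GC score as covariate it was 0.14, so its sign depended on that choice. None of the 17 enzymes passed limma with that covariate, where standard errors were larger and 7.39% of all genes passed. Estimates could move there as well, from -0.28 to -0.069 for PGK1, while PGAM1 stayed at 0.18.

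In the order of the pathway, hexokinase comes first and traps glucose as glucose-6-phosphate. HK1, the main form here, was at 23301, 23795 and 23359.9 in siNC and at 22568, 21872 and 21993 in siELF5 (log2 fold change -0.085, SE 0.0283, limma adjusted p = 0.0256). That drop, to 94.3% of siNC, did not pass without siNC replicate 2 (limma adjusted p = 0.123), siNC replicate 3 (0.0512) or siELF5 replicate 2 (0.0817), nor after GC correction (0.0527). HK2, the inducible form, had means of 2393 ± 22 and 2356 ± 109 (SD, n = 3), and its groups overlapped (limma adjusted p = 0.717). HK1 made up 93.4% of the pair's normalised reads per kilobase in siNC and 93.1% in siELF5. The isomerase GPI, the next step, stood at -0.017 (SE 0.0304) and did not pass.

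Phosphofructokinase, the committed step, showed unequal changes among its 3 genes. PFKM, the muscle-type subunit, was at 10569.8, 10577 and 10178 in siNC and at 8220.2, 8195 and 8465 in siELF5. Its groups were far apart against their spread (log2 fold change -0.33, SE 0.0329, limma adjusted p = 4.86e-06), and the value was -0.31 after GC correction. PFKL, the liver-type subunit, was at 8878, 10009 and 10953 in siNC and at 12193, 12297 and 12369 in siELF5 (log2 fold change 0.31, SE 0.0576, limma adjusted p = 0.00073). Its siNC values differed widely, in the order of the GC score, and with a GC content of 63.5% it went to -0.023 after GC correction (limma adjusted p = 0.52). PFKP, the platelet-type subunit, did not pass (log2 fold change -0.020, SE 0.0361, limma adjusted p = 0.682). By normalised reads per kilobase PFKM went from 29.7% ± 1.86 to 23.4% ± 0.338 of the 3 genes (SD, n = 3). These shares hold no GC correction, so they include the rise of PFKL that the correction removed. Within siNC the PFKM share was 31.5%, 29.9% and 27.8% in replicates 1, 2 and 3, also in the order of the GC score. Of the exon bases of PFKM 8.65% lie in exons of SENP1 on the other strand. Over the 6 libraries SENP1 had a mean of 6201, against 9367 for PFKM.

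The PFKFB enzymes set the level of fructose-2,6-bisphosphate, a strong activator of phosphofructokinase, and they moved apart. PFKFB3, whose kinase activity far exceeds its phosphatase activity, was at 28326, 29072 and 28897 in siNC and at 37826, 36672 and 37525 in siELF5. It rose to 129.8% of the siNC mean, far beyond the spread within a group (log2 fold change 0.38, SE 0.0277, limma adjusted p = 3.7e-07). The value was 0.38 after GC correction and 0.35 with the GC score as covariate. PFKFB4, the other listed member of the family, fell from 1972, 1957 and 1816 to 1288, 1458 and 1466 (log2 fold change -0.45, SE 0.0629, limma adjusted p = 8.49e-05). PFKFB4 was the minor form, with 7.75% ± 0.371 of the pair's normalised reads per kilobase in siNC and 4.53% ± 0.359 in siELF5 (SD, n = 3).

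**Figure D4:**
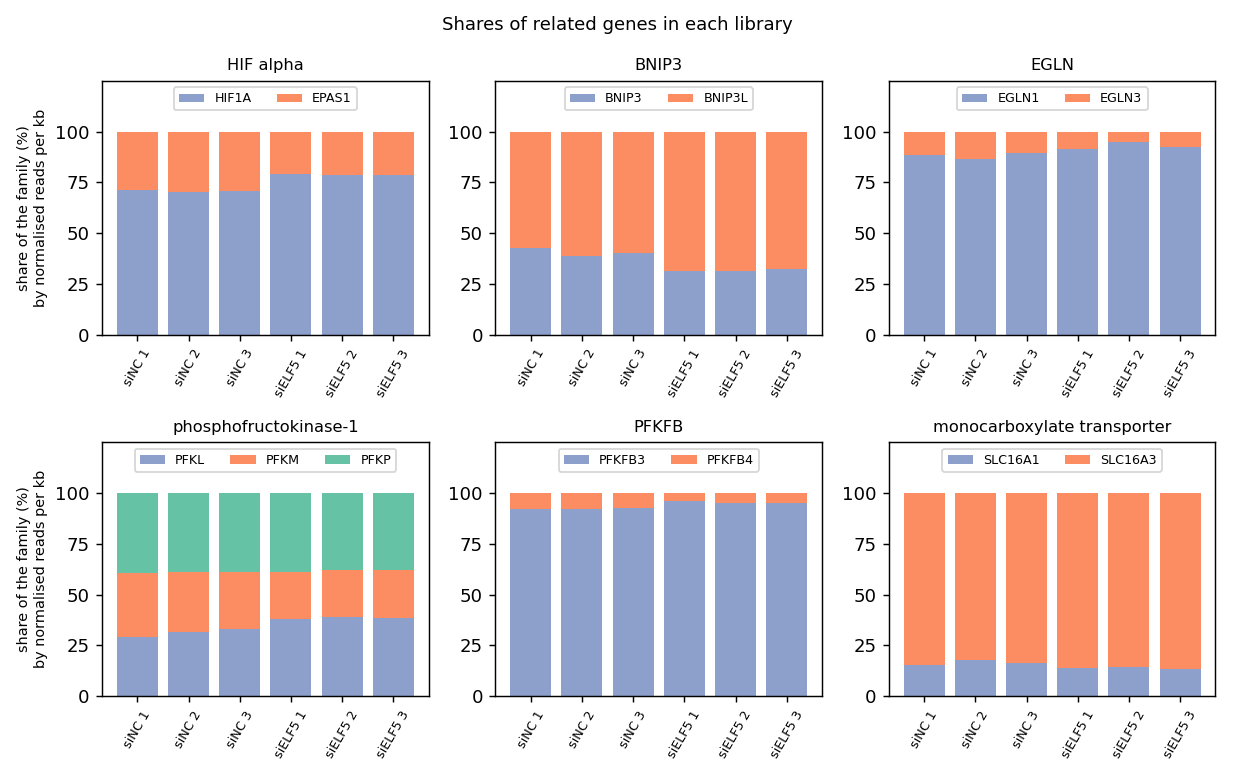
Share of each gene in the summed normalised reads per kilobase of its family (vertical axis, percent) in each of the 6 libraries, without GC correction. EPAS1, BNIP3, EGLN3, PFKM and PFKFB4 hold a smaller share in every siELF5 library than in any siNC library.

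Enzymes that split and oxidise the sugar fell slightly or did not pass. ALDOA, the main aldolase, was at 62440.2, 66827 and 69394 in siNC and 70211, 69743 and 68407 in siELF5. Its log2 fold change was 0.070 (limma adjusted p = 0.131) and turned to -0.093 after GC correction, where it passed (limma adjusted p = 0.00317). ALDOC, the brain-type aldolase, fell from 3422, 3159.6 and 3271 to 2719, 2803 and 2964 (log2 fold change -0.22, SE 0.048, limma adjusted p = 0.00259). TPI1, triose phosphate isomerase, fell from 19622, 19269 and 18228 to 16694, 16144 and 17020.5 (log2 fold change -0.20, SE 0.0351, limma adjusted p = 0.000562). In both the groups did not overlap. With the GC score as covariate ALDOC stood at -0.11 and TPI1 at -0.032, and neither passed (limma adjusted p = 0.668 and 0.870).

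GAPDH, a common reference gene, was at 104549, 104655 and 104524 in siNC and at 101478, 96558 and 100311 in siELF5. The controls were nearly equal, and the drop to 95.1% of siNC was at the edge of the test (log2 fold change -0.073, SE 0.0277, limma adjusted p = 0.046). It did not pass without any 1 of the siNC libraries or without siELF5 replicate 2 (limma adjusted p from 0.0901 to 0.17), and it was -0.14 after GC correction (adjusted p = 0.000355).

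PGK1, the first ATP-producing enzyme and a classic HIF-1 target, fell from 47068, 43846 and 42813 to 37346, 35956 and 37062. The groups were apart, siNC replicate 1 was the highest, and the siELF5 mean was 82.5% of siNC (log2 fold change -0.28, SE 0.0358, limma adjusted p = 4.62e-05). PGAM1, phosphoglycerate mutase, went the other way, from 49591, 50075 and 49395 to 56988, 56328 and 55153 (log2 fold change 0.18, SE 0.0266, limma adjusted p = 0.000154). ENO1, the main enolase, fell from 112646, 110547 and 109132 to 99530.4, 95419.7 and 100705 (log2 fold change -0.17, SE 0.0292, limma adjusted p = 0.00043). Thus neighbouring steps moved in opposite directions in the main fit, each by under 1.5-fold. With the GC score as covariate PGK1 stood at -0.069, PGAM1 at 0.18 and ENO1 at -0.083. None of them passed there (limma adjusted p = 0.657, 0.159 and 0.589). ENO2, the neuronal enolase, overlapped between groups (log2 fold change -0.041, SE 0.0974).

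At the end of the pathway PKM, pyruvate kinase, did not pass (log2 fold change -0.011, SE 0.0307, limma adjusted p = 0.788). LDHA, which reduces pyruvate to lactate, was at 61764, 58053 and 57257 in siNC and at 59153, 58000.0 and 56317 in siELF5. With 3 matches in the promoter window printed above, it showed overlapping groups (log2 fold change -0.029, SE 0.0336, limma adjusted p = 0.509). LDHB, the form that favours lactate oxidation, was minor, with 1.02% of the pair's normalised reads per kilobase in siNC and 1.28% in siELF5. It rose from 407, 397 and 356 to 485, 493 and 456 (log2 fold change 0.31, SE 0.0911, limma adjusted p = 0.0144). That call was lost without siNC replicate 3 (limma adjusted p = 0.0557), siELF5 replicate 1 (0.05004) or siELF5 replicate 2 (0.0535). GENCODE 29 lists pseudogenes named after 16 of the 42 genes, among them 62 for GAPDH, 13 for PGAM1 and 6 for LDHA, so reads of these genes could be split with copies.

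Lactate transporters rose, whereas the main glucose transporter did not pass the test. SLC16A3 (MCT4), the HIF-induced exporter of lactate, was at 1647, 1537 and 1826 in siNC and at 2918, 3146 and 2949 in siELF5. Every siELF5 value was well above every siNC value, and the siELF5 mean was 179.9% of siNC (log2 fold change 0.85, SE 0.0623, limma adjusted p = 3.61e-07). With a GC content of 62.7% the value was 0.57 after GC correction and 0.63 with the GC score as covariate, and it passed in both. Of its exon bases 6.5% lie in exons of CSNK1D on the other strand. Over the 6 libraries CSNK1D had a mean of 9027, against 2337 for SLC16A3, and the part of such reads was not tested.

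SLC16A1 (MCT1), which carries lactate in either direction, rose from 269, 304 and 315 to 427, 473 and 417 (log2 fold change 0.57, SE 0.102, limma adjusted p = 0.000585). With the GC score as covariate it stood at 0.20 and did not pass (limma adjusted p = 0.731). SLC2A1 (GLUT1), the basal glucose transporter and a HIF-1 target, was at 2774, 2712 and 2541 in siNC and at 2861, 2583 and 2778 in siELF5, with overlapping groups (limma adjusted p = 0.625). SLC2A3 (GLUT3) was below the filter and not tested, at 2.3, 4.61 and 10.1 in siNC and 5.43, 0 and 2.05 in siELF5.

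Other genes of the same pathways, from lists that do not overlap the 42, also held calls in both directions. Their called shares are given beside the 47.1% of all genes tested (23.8% upward and 23.3% downward). Of 14 tested regulators of HIF, 1 rose and 6 fell, which is 50% and near that background, the median being -0.12 on the log2 scale. After GC correction 2 rose and 6 fell, 57.1% beside 48.3% of all genes. With equal totals 2 rose and 5 fell, while over all genes 4380 rose and 3132 fell. HSP90AA1 and HSP90AB1, chaperones that stabilise the alpha subunits, fell by 0.28 and 0.27 (limma adjusted p = 2.35e-05 and 1.16e-05). TCEB1, elongin C of the VHL complex, fell by 0.29, and EP300, a HIF coactivator, fell by 0.15. None of these 4 passed limma with the GC score as covariate (adjusted p = 0.0518 for TCEB1 and 0.209 to 0.631 for the others). The only regulator called in that model, TCEB2 (elongin B), stood at 0.050 and did not pass without a GC term (adjusted p = 0.577), and was -0.13 after GC correction, where it passed (limma adjusted p = 0.0184). EGLN2, the remaining HIF prolyl hydroxylase, was at 2.05 to 12.9 and not tested, and 66.6% of its exon bases are shared with the read-through gene RAB4B-EGLN2, so its level is uncertain.

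Of 39 tested further hypoxia-induced genes, 6 rose and 14 fell, which is 51.3% and near the background, the median being -0.064. After GC correction 12 rose and 14 fell, 66.7% beside 48.3% of all genes. With equal totals 11 rose and 12 fell, while over all genes 4380 rose and 3132 fell. TFRC, the transferrin receptor, fell from 254696, 244896 and 237083 to 173613, 165007 and 166161 (log2 fold change -0.55, SE 0.0328, limma adjusted p = 6.79e-08). EDN1, endothelin-1, fell by 0.53 on the log2 scale, with SE 0.0331, and EFNA1, ephrin-A1, by 0.62, with SE 0.0466. CA12, a carbonic anhydrase that is also estrogen-induced, rose by 0.61, with SE 0.0278. All 4 passed limma with the GC score as covariate.

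Of 37 tested genes of the branches of glycolysis and of pyruvate entry into mitochondria, 14 rose and 13 fell, the median being 0.11. The called share was 73%, beside 47.1% of all genes and 58.3% of those with a mean of at least 1000, a level that not all of the list reached. After GC correction 10 rose and 13 fell, 62.2% beside 48.3% of all genes, with a median of -0.0088. With equal totals 15 rose and 8 fell, while over all genes 4380 rose and 3132 fell. SLC2A10 (GLUT10), a facilitative sugar transporter, had the largest increase of the list. It was at 743, 743 and 755 in siNC and at 1689.9, 1711 and 1677 in siELF5, with very little spread in either group (log2 fold change 1.18, SE 0.0558, limma adjusted p = 8.19e-09), and the value was 1.14 with the GC score as covariate. The glycerol-3-phosphate dehydrogenases moved apart, since GPD1L fell by 0.47 on the log2 scale and the mitochondrial GPD2 rose by 0.32. PFKFB2, another member of the PFKFB family, fell by 0.35. GPD1L and GPD2 passed limma with the GC score as covariate, and PFKFB2 did not (adjusted p = 0.0721).

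**Figure D5:**
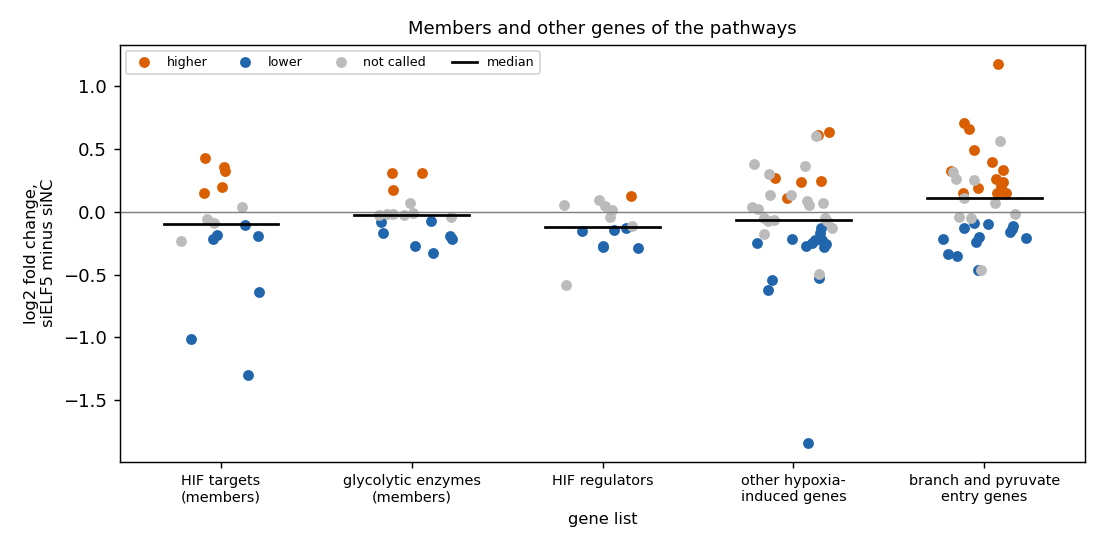
Log2 fold change (vertical axis) of the tested genes of 5 lists, coloured by whether they rose, fell or did not pass, with the list median as a line. Risen and fallen genes occur in every list, and the medians run from -0.12 for the HIF regulators to 0.11 for the branch and pyruvate entry genes.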

How the data were processed

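The deposited table of the whole series was used, and its columns were assigned to the 6 libraries by the group and replicate number in their names. Build hg19 and the tools STAR 2.6, Subread, featureCounts 1.6.3 and DESeq2 1.22.1 are named in the submitters' processing notes; the sources used here do not give their settings. The deposited signal values are normalised counts: 100% of values in each column were whole multiples of 1 step (tolerance 1e-06), so whole reads were recovered. The authors' deposited log2 fold changes, test score and p-values entered no test. In the authors' deposited results 28 of the 42 genes had an adjusted p-value past the threshold, 10 higher and 18 lower. Over all genes of those results 7103 were past it, 3562 higher and 3541 lower.

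The main test was limma 3.58.1 (R 4.3.3), two-sided and with its intensity trend, on log2(value + 1). It was fitted to the 16032 genes with a mean of at least 10, with Benjamini-Hochberg adjustment over all of them and a threshold of 0.05. This scale understates the change of low genes. The code was tested on simulated data. Alternatives included edgeR 4.0.16 and DESeq2 1.42.0 on recovered reads. Nothing in the labels says that replicates came from separate cultures, and the p-values then measure only how far these libraries spread, which may be a technical spread. Replicates of a group differed by more than sampling noise (chi-square of 4.37 to 12 for each degree of freedom).

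Transcript length and GC content are those of the longest coding GENCODE 29 transcript, found for 96.2% of tested genes. The GC correction subtracts a loess curve (span 0.3) in each library. The GC score is the median deviation in the highest of 10 GC classes minus that in the fifth. Promoter sequences are RefSeq's (GRCh38.p14), a different build from that of the counts, and were matched by symbol. The 42 genes and the lists were chosen with earlier results of these data known. All 42 could be named, and of each other list the 4 genes with the smallest adjusted p among those called. EGLN2, TCEB2 and the markers of other cell types were named after their values were seen.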

Additional observations from a re-analysis of the deposited data

How the results depend on the processing

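Adding the GC score of each library as a covariate lowered the calls to 1184 genes in all (527 higher, 657 lower) and to 7 of the 42 genes. By group, 1 HIF subunit, 4 HIF targets, 0 glycolytic enzymes, 1 transporter, 1 PFKFB enzyme, 1 HIF regulator, 7 further hypoxia genes and 3 branch genes then passed. Without the intensity trend 4 HIF regulators passed. The other alternatives kept each of these counts within 1.5 times. Leaving out single libraries gave 6167 to 7324 genes in all and 24 to 27 of the 42.

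The median of the targets minus that of the enzymes was -0.055 with a mean of at least 50, -0.10 with quantile scaling, -0.042 after GC correction, 0.14 with the GC score, -0.12 with edgeR and -0.12 with DESeq2. Leaving out single libraries gave -0.097 to -0.019.

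Signs turned for genes with small changes. With the GC score the log2 fold change was 0.13 for BNIP3, 0.28 for PDK1, 0.039 for KDM3A, 0.0019 for HK2, -0.11 for PFKL, -0.15 for ALDOA, 0.11 for ENO2, 0.076 for PKM and 0.12 for LDHA. After GC correction it was 0.0068 for HK2, 0.0063 for GPI, -0.023 for PFKL, -0.093 for ALDOA and 0.017 for LDHA. With equal totals it was 0.0081 for HK2, 0.014 for GPI, 0.012 for PFKP, 0.020 for PKM and 0.0026 for LDHA, and with quantile scaling 0.029 for GPI, 0.012 for PFKP and 0.024 for LDHA. Leaving out a library gave -0.67 to 0.11 for CA9, -0.10 to 0.022 for PDK1, -0.056 to 0.011 for HK2, -0.049 to 0.012 for PFKP, -0.12 to 0.076 for ENO2, -0.029 to 0.017 for PKM, -0.051 to 0.0040 for LDHA and -0.0025 to 0.076 for SLC2A1. CA9 was below the filter without siNC replicate 3 and without siELF5 replicate 3, so its range rests on 4 fits. The cause was not tested.

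Of the 29 calls, 19 held under every alternative but the GC score, and 22 under each of the 6 fits without a library. With the replicate number as a block 28 of the 42 genes passed, DDIT4 being lost (limma adjusted p = 0.0724). Same-numbered libraries did not deviate together (correlations of -0.020, -0.063 and -0.15 over 12851 genes), so the numbers were not taken as pairs. The genes with the fewest reads were SLC2A3, CA9 and ANKRD37, and the effect of depth was not tested.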
